A study of Mus musculus with 9 samples.

Results

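Inside genes, away from any promoter, PBRM1 and BRG1 shared 512 sites whose BRG1 summit lay in protein-coding sequence. The sites came from peak lists of ChIC-Seq, an assay in which an antibody brings a nuclease to its target in fixed cells and the DNA cut loose is sequenced. A site was a peak of the pooled BRG1 list on chromosomes 1 to 19 that overlapped a peak of the pooled PBRM1 list by at least 1 bp. Its summit had to lie in a coding interval (CDS) of a protein-coding gene of GENCODE M21 and more than 2 kb from the start of any transcript. These 512 were 0.836% of the 61278 BRG1 peaks shared with PBRM1. At 298 of the 512 an overlapping PBRM1 peak also had its summit in distal coding sequence. The sites were chosen by the pooled BRG1 and PBRM1 peak calls, so pooled values are given below as a description, with no test.

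All samples were primary smooth muscle cells from the oviducts of wild-type (WT) mice aged 8-12 weeks, mated with stud males and taken on day 2 of pregnancy. Whole oviducts were digested and filtered, and the cells were plated for a few hours, with no sort. Each library started from 50000 cells. There were 3 libraries with anti-pbrm1, 3 with anti-Brg1 and 3 with IgG, and the IgG libraries were not analysed here. The labels do not say whether replicates came from separate animals, so the p-values measure only the spread between these libraries. Fragment totals in the file headers ran from 14284532 to 23992352, and each PBRM1 library was deeper than each BRG1 library. Promoter peaks in all 6 lists were found at 5 of 10 smooth muscle marker genes (Acta2, Tagln, Mylk, Cald1 and Smtn) and at 0 of 7 epithelial, 0 of 5 fibroblast, 0 of 4 endothelial and 0 of 4 blood markers. Of the other smooth muscle markers, Lmod1 had a promoter peak in 5 lists, Des and Myocd in 4, Myh11 in 1 and Cnn1 in 0. Markers of other cell types had promoter peaks in some lists as well, with 5 lists at Kdr (endothelium) and Col1a2 (fibroblasts), 3 at Cdh1 (epithelium), Pdgfra and Dcn (fibroblasts) and 2 at Krt8 (epithelium). The part of other cell types in the sites was not tested.

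BRG1 is an ATPase of the SWI/SNF complexes, which slide or evict nucleosomes, and PBRM1 is a bromodomain subunit of the PBAF form of SWI/SNF. Most binding of such remodelers is studied at promoters and enhancers. Coding exons can also hold regulatory sequence, and a stretch of DNA can then serve a reading frame and a regulatory element together. CpG dinucleotides are depleted from most of the mouse genome, and runs of sequence that keep them, called CpG islands, mark many promoters and some sites within genes.

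The sequence at the strongest sites shows what these places look like. Windows of 241 bp around the BRG1 summit are printed in the direction of the gene, from the GRCm38 reference, with coding bases in capitals and intron in lower case. Btd and Scnn1a were the strongest internal-exon sites, and Zfp771 and Gdf15 the strongest last-exon sites, among those called in all 6 lists with no UTR in the window and little repeated sequence. Syne1 is shown as the gene with the most sites and Usp43 as the strongest site of low CpG content with an AP-1 or TEAD motif, and these 2 were chosen after their values were seen.
Btd (chr14:31662031-31662271, + strand): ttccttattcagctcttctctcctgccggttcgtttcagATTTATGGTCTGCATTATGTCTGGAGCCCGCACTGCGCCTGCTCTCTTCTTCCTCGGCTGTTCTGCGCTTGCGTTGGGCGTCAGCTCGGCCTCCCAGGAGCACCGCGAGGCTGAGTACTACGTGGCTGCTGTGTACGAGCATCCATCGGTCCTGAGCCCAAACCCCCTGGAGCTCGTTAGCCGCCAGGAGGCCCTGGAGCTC
Scnn1a (chr6:125330981-125331221, + strand): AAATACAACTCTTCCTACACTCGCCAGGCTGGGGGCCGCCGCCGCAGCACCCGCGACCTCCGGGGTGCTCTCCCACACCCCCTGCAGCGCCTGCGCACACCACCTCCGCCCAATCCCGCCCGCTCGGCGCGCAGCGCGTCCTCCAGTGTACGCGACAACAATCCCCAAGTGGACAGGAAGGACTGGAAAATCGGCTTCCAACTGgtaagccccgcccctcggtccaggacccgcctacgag
Zfp771 (chr7:127254249-127254489, + strand): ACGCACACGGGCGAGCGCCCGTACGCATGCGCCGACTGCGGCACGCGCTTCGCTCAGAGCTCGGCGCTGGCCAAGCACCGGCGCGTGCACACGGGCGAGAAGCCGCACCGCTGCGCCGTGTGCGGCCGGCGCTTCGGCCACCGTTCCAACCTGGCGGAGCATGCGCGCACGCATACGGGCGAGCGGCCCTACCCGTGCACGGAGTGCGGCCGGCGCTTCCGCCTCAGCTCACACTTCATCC
Gdf15 (chr8:70629964-70630204, - strand): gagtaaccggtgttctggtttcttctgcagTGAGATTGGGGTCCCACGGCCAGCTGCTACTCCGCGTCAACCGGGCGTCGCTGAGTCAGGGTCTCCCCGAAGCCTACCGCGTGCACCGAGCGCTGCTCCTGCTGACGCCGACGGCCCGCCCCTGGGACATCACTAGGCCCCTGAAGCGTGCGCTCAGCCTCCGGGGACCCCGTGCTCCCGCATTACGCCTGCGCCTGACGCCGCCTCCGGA
Syne1 (chr10:5289363-5289603, - strand): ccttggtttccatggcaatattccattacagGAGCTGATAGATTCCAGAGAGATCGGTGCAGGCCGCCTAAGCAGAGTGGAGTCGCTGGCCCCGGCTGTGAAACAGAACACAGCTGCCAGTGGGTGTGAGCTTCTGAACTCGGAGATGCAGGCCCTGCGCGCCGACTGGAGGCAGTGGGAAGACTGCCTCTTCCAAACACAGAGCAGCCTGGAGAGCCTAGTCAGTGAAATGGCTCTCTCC
Usp43 (chr11:67897188-67897428, - strand): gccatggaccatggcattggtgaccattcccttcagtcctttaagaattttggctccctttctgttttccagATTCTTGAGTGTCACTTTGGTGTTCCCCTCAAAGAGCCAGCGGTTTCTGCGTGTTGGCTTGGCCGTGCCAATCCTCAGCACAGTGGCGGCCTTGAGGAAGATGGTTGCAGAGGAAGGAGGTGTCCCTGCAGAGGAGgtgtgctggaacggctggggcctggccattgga

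The window of Zfp771 was coding throughout, and the other 5 windows crossed a splice boundary. Zfp771 held 41 CpG dinucleotides in 241 bp, Gdf15 26, Scnn1a 24 and Btd 16. Syne1 held 8 and Usp43 held 5. The ratio of observed to expected CpG, which corrects for the amount of C and G, was 1.27 at Zfp771, 0.936 at Scnn1a, 0.933 at Gdf15, 0.742 at Btd, 0.407 at Syne1 and 0.277 at Usp43. In the Gdf15 window an E-box match began at base 51 and an AP-1 match at base 82. Syne1 had an E-box match at base 111, and Usp43 had a TEAD match at base 25, in the intron, and an NFI half-site match at base 138, in the exon.

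The 512 sites lay in 483 genes. Of these genes, 460 held 1 site, 19 held 2 and 4 held 3 or more. By the transcript with the longest coding sequence, 357 sites (69.7%) were in an internal exon and 154 (30.1%, 95% Wilson interval 26.3 to 34.2, counting error only) in the last exon. Fjx1, whose gene has a single exon, held 1 site and no site was in a first exon. The 2 kb limit removes nearly all coding first exons, which made up 0.341% of the eligible coding bases. For 492 sites every transcript gave the same exon class. Last exons held 21.8% of the eligible coding bases, so sites were at 35.6 per Mb of last-exon coding sequence and 23.2 per Mb of internal-exon coding sequence.

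The exons themselves were of unlike size. The median internal exon with a site was 163 bp long and the median last exon 1471.5 bp. The peak was longer than its exon at 327 of 512 sites, so much of the underlying signal covered flanking introns. Peaks were 419 bp long at the median, 386 bp in internal and 506 bp in last exons. Summits lay 7374 bp from the nearest transcript start at the median, against 12875 bp for shared intron peaks. The nearest start was within 5 kb for 176 sites and over 50 kb away for 23. Just inside the limit were Gdf15 at 2011 bp and Fam171a2 and Pou2f3 at 2048 bp from a start, and just outside it were the coding peaks of Apold1 at 1982 bp and Eprs at 1965 bp. The smallest overlap with a PBRM1 peak was 8 bp, at Neb, and the smallest gap of a peak left out was 15 bp, at Sh3rf1. A further 533 distal coding BRG1 peaks overlapped no PBRM1 peak.

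Sites per Mb of genome were about as frequent in distal coding exons as in introns. The density of shared peaks was 25.4 per Mb in distal coding sequence, 23.2 in other distal exons, 23.6 in distal introns, 15.2 between genes and 76.3 within 2 kb of a transcript start. Of the 512 sites, 375 lay in a gene whose own promoter also held a shared peak. By gene, the share was 73.5% for the 483 host genes and 70.3% for the 15389 other genes with distal coding sequence.

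Coding-exon sites had more CpG than other distal sites, which is given as a description with no test. In 201 bp around the summit, the ratio of observed to expected CpG was 0.449 at the median, against 0.208 at shared intron peaks, 0.653 at shared promoter peaks and 0.316 at the midpoints of all distal coding intervals. The ratio was over 0.6, a level usual for CpG islands, at 165 sites (32.2%). That level was reached by 3.48% of shared intron peaks, 9.71% of peaks in other exons, 54.7% of promoter peaks and 9.28% of distal coding midpoints. GC content was 53.7% at the median of the sites and 48.8% at the coding midpoints.

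The CpG-rich sites were concentrated in last exons. Among last-exon sites 94 of 154 (61.0%) had a ratio over 0.6, and among internal-exon sites 70 of 357 (19.6%). Around every 50th distal coding base, the ratio exceeded 0.6 at 13.6% of last-exon and 9.40% of internal-exon positions. CpG-rich last-exon sequence therefore held 160.3 sites per Mb, CpG-rich internal-exon sequence 48.4, and the remaining last-exon and internal-exon sequence 16.0 and 20.6. The ratio was taken in 201 bp around each position and not over whole exons. Among positions over 0.6 the median GC was 56.7% in last and 50.7% in internal exons. The part of GC content in this contrast was not tested.

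The same concentration in last exons was present in each replicate library when its own summits were used. Within CpG-rich coding sequence, last exons held 67.6%, 64.6% and 61.7% of the summits in PBRM1 replicates 1, 2 and 3 and 62.7%, 60.9% and 59.8% in BRG1 replicates 1, 2 and 3. Last exons made up 28.6% of that sequence. In the remaining coding sequence last exons held 15.6% to 24.2% of the summits over the 6 libraries, around their 21.02% of the bases. CpG-rich summits made up 27.3% to 36.5% of the distal coding summits of a library and 3.33% to 4.05% of its intron summits. The libraries entered the pooled lists and are not independent of the choice of sites.

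**Figure D1:**
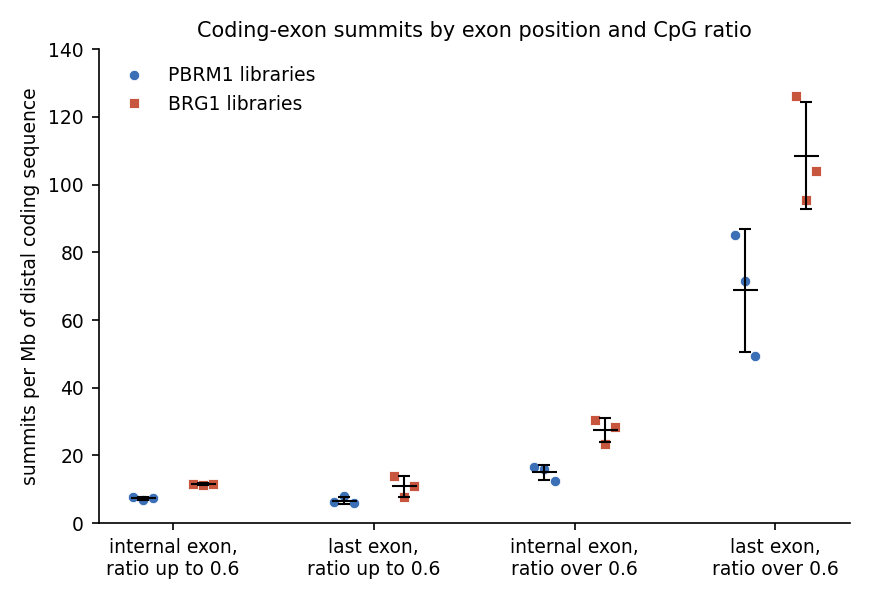
Summits of each replicate library per Mb of distal coding sequence, for internal and last exons with an observed over expected CpG ratio up to or over 0.6 in 201 bp. Points are libraries (3 PBRM1, 3 BRG1), bars the mean and SD. In CpG-rich last-exon sequence the libraries run from 49.4 to 126.2 summits per Mb and in CpG-rich internal-exon sequence from 12.4 to 30.4.

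Sites of high and low CpG content also differed in other values. Pileup is the number of fragments that cover the summit, and scaled pileup is that number per 1000000 fragments of the file header. CpG-rich sites had a median scaled pileup in the pooled BRG1 list of 0.663 and the others 0.575, while the PBRM1 median was 0.485 in each. At the median the log2 of PBRM1 over BRG1 was -0.55 at CpG-rich sites and -0.24 at the others. The same quantity was -0.64 at CpG-rich promoter peaks and -0.21 at CpG-poor intron peaks. Peaks were 485 bp long at CpG-rich sites and 387 bp at the others, and the nearest transcript start was 5535 and 8335 bp away.

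Over all 512 sites the pooled BRG1 value (scaled pileup) ran from 0.288 to 2.61 with a median of 0.597, which at Dlg2, for example, stood for a pileup of 27 fragments. The pooled PBRM1 value ran from 0.226 to 1.58 with a median of 0.485. All shared peaks had medians of 0.730 and 0.614, and shared intron peaks 0.641 and 0.565. PBRM1 was above BRG1 at 102 sites. These values compare 2 antibodies whose yields need not be equal, so a ratio is read here only against the ratio at other sites. The log2 ratio had a median of -0.32, as over all shared peaks, and of -0.49 in last and -0.26 in internal exons. By location, the median was -0.51 at shared promoter peaks, -0.26 in other distal exons, -0.21 in distal introns and -0.23 between genes. Summits of the pair were 81.5 bp apart at the median and within 100 bp at 295 sites.

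**Figure D2:**
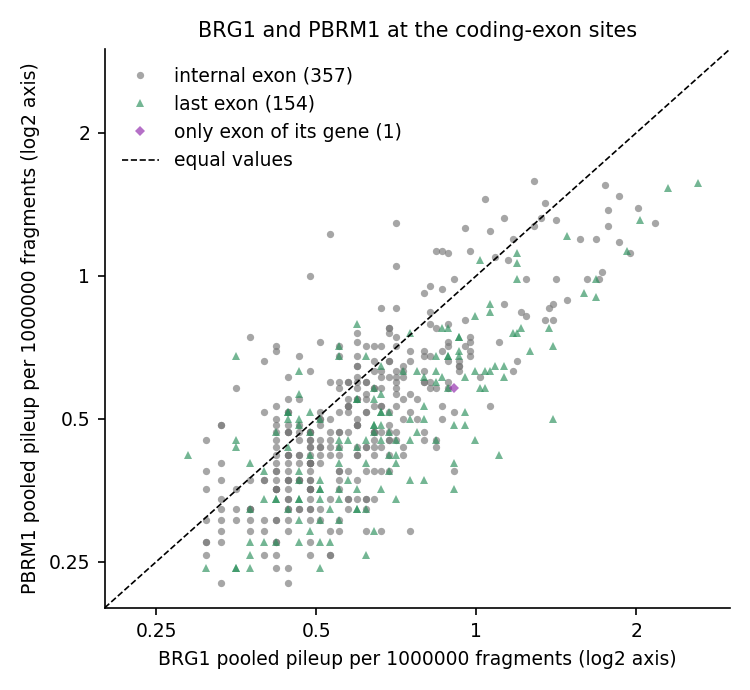
Pooled PBRM1 against pooled BRG1 pileup per 1000000 fragments at each of the 512 sites, on log2 axes, with symbols for the exon class and a dashed line at equal values. Most points lie below the line, and 102 of 512 lie above it.

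Replicate support of the sites was low and close to that of introns. A peak in all 6 replicate lists overlapped 53 sites (10.4%), against 20.8% of all 61278 shared peaks. All 3 BRG1 lists held 96 sites (18.75%, against 29.6%), and all 3 PBRM1 lists held 83 (16.2%, against 27.6%). No replicate list held 84 sites (16.4%, against 15.2%), which were called only after pooling, and 136 had 1 list. Shared intron peaks were in all 6 lists in 9.85% and in no list in 18.9% of cases, and shared promoter peaks in 39.4% and 10.1%. PBRM1 replicates 1, 2 and 3 recovered 196, 188 and 172 sites, and BRG1 replicates recovered 234, 196 and 218. All 6 lists held 21 of 154 last-exon sites (13.6%) and 32 of 357 internal-exon sites (8.96%). Among CpG-rich sites the share was 14.5% and among the others 8.36%, whereas CpG-rich promoter peaks reached 57.3%.

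**Figure D3:**
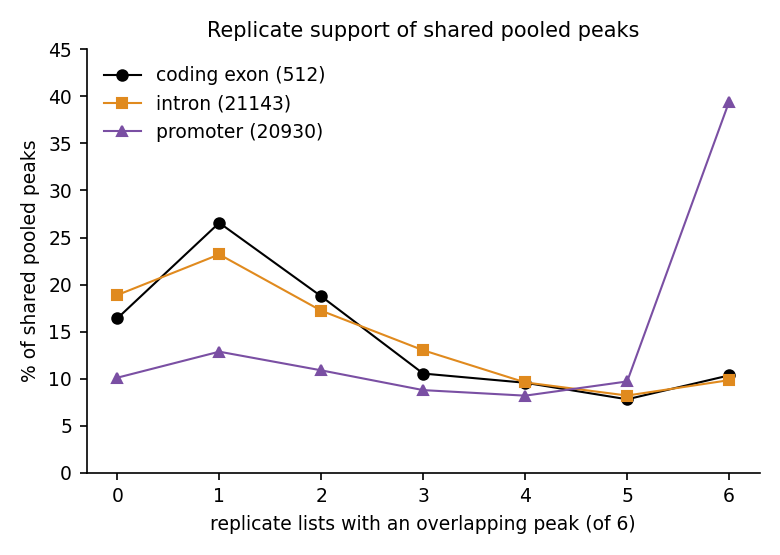
Share of shared pooled peaks by the number of replicate lists (0 to 6) with an overlapping peak, for 512 coding-exon sites, 21143 distal intron peaks and 20930 promoter peaks. The coding-exon and intron lines run close together, at 10.4% and 9.85% for 6 lists, while 39.4% of promoter peaks are in 6 lists.

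The sites named next were chosen for a high pooled BRG1 value from these same libraries, which favours BRG1 over PBRM1 at each, so the values are a description. Over all 61278 shared peaks the log2 of PBRM1 over BRG1 had a median of -0.32 and an upper quartile of -0.04. A lower PBRM1 value was thus usual. The share of shared peaks without overlap of the groups was not counted, so its absence at single sites is not read as particular to them. The strongest site was in Akt1s1, which encodes PRAS40, a substrate of AKT that restrains mTORC1. Its peak (chr7:44854308-44855063) lay in the last of 5 exons, 2085 bp from a transcript start. The scaled pileup was 1.82, 1.82 and 1.25 in PBRM1 replicates 1, 2 and 3 and 3.08, 2.87 and 3.06 in BRG1 replicates 1, 2 and 3, and the groups did not overlap. Fbxl22, an F-box protein gene known from the sarcomere of striated muscle, had the next highest value in the last of 2 exons (chr9:66511431-66512802). Its PBRM1 libraries gave 1.87, 1.93 and 1.79 and its BRG1 libraries 1.95, 2.45 and 2.79, so the lowest BRG1 library was just above the highest PBRM1 library. The promoter of Fbxl22 held no shared peak, whereas that of Akt1s1 did. Cdon, a cell-surface receptor gene of the hedgehog pathway named here after its value was seen, ranked between them and Zfp771 at a pooled BRG1 value of 2.17, but PBRM1 replicate 2 had no peak there.

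Zfp771, a zinc finger gene, followed among the sites in all 6 lists (chr7:127253714-127254724). Its last exon gave 1.62, 1.43 and 1.04 in the PBRM1 libraries and 2.33, 2.24 and 2.79 in the BRG1 libraries. The CpG-rich window printed above comes from this exon. Gdf15, a stress-induced cytokine of the TGF-β family, had 1.47, 1.38 and 1.21 in the PBRM1 and 2.39, 2.10 and 1.73 in the BRG1 libraries (chr8:70629520-70630357).

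Btd encodes biotinidase, which recovers the vitamin biotin, and had the highest internal-exon value among sites in all 6 lists (chr14:31661599-31663158). The libraries gave 1.87, 1.49 and 1.33 for PBRM1 and 2.08, 2.17 and 2.19 for BRG1. The groups did not overlap. Its exon is number 2 of 4, and the nearest transcript start was 20865 bp away. Scnn1a, the alpha subunit of the epithelial sodium channel, had 1.16, 1.38 and 0.959 for PBRM1 and 1.89, 1.82 and 2.19 for BRG1, also in exon 2 and without overlap (chr6:125330603-125331245). Its log2 ratio of -0.80 was among the 4 lowest of the 53 sites in all 6 lists, together with Vsig8 (-0.89), Prrt3 (-0.80) and Hmcn2 (-0.79), a hemicentin of the extracellular matrix. Those 3 sites were in last exons of 63.2% to 72.1% GC.

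Usp43, a deubiquitinase gene, had a fold enrichment over the local background of 9.66, the highest of all 512 sites (chr11:67896569-67897525). Its libraries gave 1.36, 1.16 and 1.33 for PBRM1 and 1.76, 1.26 and 2.66 for BRG1, and here the groups overlapped. Rin2, a RAB5 exchange factor gene, and Pml, the gene of the scaffold of PML nuclear bodies, completed the 10 strongest sites with Syne1. Rin2 gave 1.67, 1.60 and 1.21 for PBRM1 and 2.14, 1.40 and 2.00 for BRG1, with overlap. Pml gave 1.62, 1.32 and 1.21 and then 2.20, 1.68 and 1.53, and its groups overlapped as well. The Rin2 and Pml summits were also in the UTR of another transcript.

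**Figure D4:**
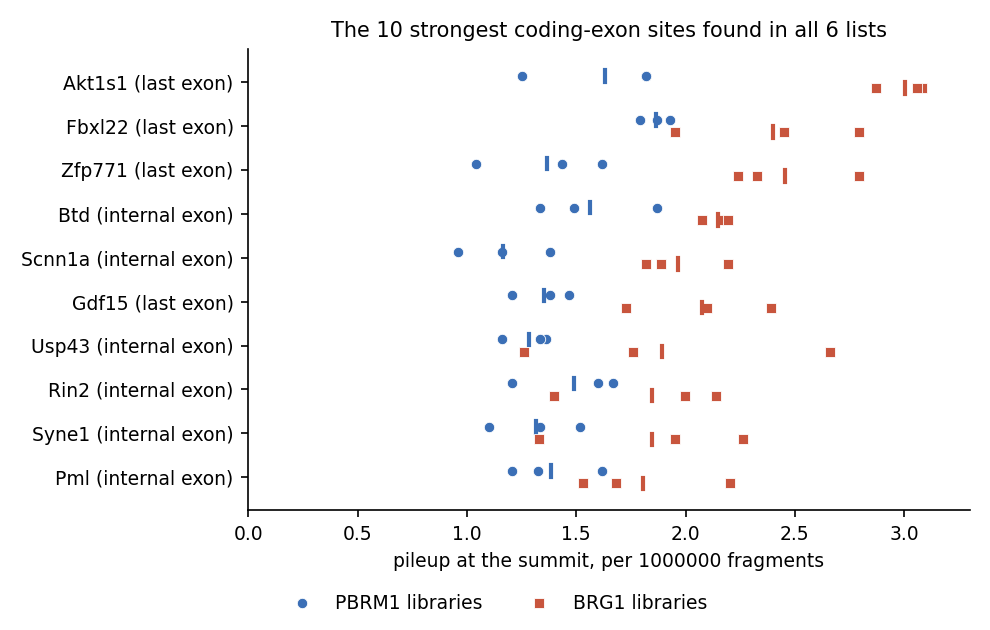
Pileup at the summit per 1000000 fragments in each replicate library at the 10 sites of highest pooled BRG1 value that had a peak in all 6 lists. Circles are PBRM1 and squares BRG1 libraries, and vertical ticks are means of 3; the groups overlap at Usp43, Rin2, Syne1 and Pml.

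Among the 53 sites in all 6 lists, those of highest PBRM1 relative to BRG1 lay in internal exons, as did 32 of the 53. Over all 512 sites the log2 ratio reached 1.21 in internal and 0.939 in last exons. The 4 highest log2 ratios among the 53 sites in all 6 lists were at Dlg2 (0.28) and Mpdz (0.22), which encode scaffolds with PDZ domains, Cep112 (0.18), a centrosomal protein gene, and Lyst (0.12), a regulator of lysosome traffic. At Dlg2 the PBRM1 libraries gave 0.859, 0.772 and 0.792 and the BRG1 libraries 0.692, 0.910 and 0.665. At Mpdz they gave 1.06, 1.32 and 1.25 and then 0.944, 0.980 and 1.40. The groups overlapped at both. These sites were chosen for their ratios, which stand beside a median of -0.32 over the 512 sites. GC content was 42.8% to 47.3% at these 4 sites.

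Syne1, the gene of nesprin-1, which ties the nuclear envelope to the cytoskeleton, held the most sites. Its 5 sites were in internal exons 47, 55, 64, 118 and 125 of 146. Exon 55 (chr10:5289153-5289888) was called in all 6 lists, with 1.52, 1.10 and 1.33 in the PBRM1 libraries and 1.95, 1.33 and 2.26 in the BRG1 libraries. Exon 118 was also in all 6 lists, at a pooled BRG1 value of 1.02. The other Syne1 sites were weaker in support, with 4 lists for exon 47, 2 for exon 125 and 1 for exon 64. Exon 55 lay 67690 bp from the nearest transcript start.

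Bmpr1b, a type I receptor for bone morphogenetic proteins, had 3 sites in exons 6, 7 and 9 of 11, with 4, 4 and 5 lists and pooled BRG1 values of 0.464, 0.796 and 0.752. Crybg3 had 3 sites, and that in its 6136-bp exon 4 was in all 6 lists, while the others were in 1 and 0. Neb, the gene of nebulin in the thin filament of striated muscle, had 3 sites with 1, 1 and 0 lists and pooled BRG1 values of 0.376 to 0.487. Of the 19 genes with 2 sites, Synpo2l, which encodes an actin-associated protein, had the highest summed BRG1 value. Its last exon of 3048 bp held a site in all 6 lists at 1.48 and a site in 0 lists at 0.752. Sites of the same gene share a template and are not separate replicates.

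Among all 15872 protein-coding genes with distal coding sequence, 3.04% held a site, at 25.8 sites per Mb of that sequence. The smooth muscle and cytoskeleton list held 19 of the 512 sites in 10 of 42 genes (23.8%), or 62.0 per Mb. This list and those that follow were drawn up with the host genes known, so their counts are no independent evidence. Beside Syne1, Neb and Synpo2l, its genes with sites included Fhl2, Ppp1r12b, Utrn, Vcl, Synpo and Macf1. Fhl2, a LIM-domain protein of muscle and actin fibers, gave 1.26, 1.93 and 1.29 for PBRM1 and 1.20, 1.40 and 1.60 for BRG1, with overlap. Coding exons of Acta2, Tagln, Myh11, Cnn1 and Myocd held no site.

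The extracellular matrix list had 18 sites in 16 of 104 genes (15.4%, 52.6 per Mb), with a median pooled BRG1 value of 0.663, and 3 of them were in all 6 lists. Tnr, the gene of tenascin-R, gave 1.52, 1.16 and 0.875 and then 1.89, 1.75 and 1.60, with no overlap. Col7a1, the collagen of anchoring fibrils, gave 1.36, 1.38 and 1.17 and then 1.70, 1.89 and 1.46, with no overlap, in a 36-bp exon, the 99th of 118. The highest pooled PBRM1 value of all 512 sites, 1.58, was at Hspg2, the gene of perlecan.

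Each of the other lists held 13 sites or fewer. Chromatin regulators had 8 sites in 8 of 76 genes (10.5%, 40.4 per Mb), among them the SWI/SNF subunit genes Smarcb1 and Smarcc1, each found in 1 list. Ash1l, a histone methyltransferase gene, was the only one of the 8 in all 6 lists, with 1.26, 1.54 and 1.33 for PBRM1 and 1.13, 1.68 and 1.53 for BRG1 in exon 2. Developmental transcription factors had 6 sites in 6 of 105 genes (5.71%), at 76.0 per Mb the highest density of the lists. Of these sites that of Foxn2, a forkhead factor, was in all 6 lists at a pooled BRG1 value of 1.22. The Foxn2 site held repeated sequence, with 27.1% of its 31-base words also found elsewhere in the genome. Ion channels had 7 sites in 7 of 141 genes (4.96%, 21.6 per Mb), with Scnn1a and the sodium channel Scn8a in all 6 lists. Cadherins and protocadherins had 3 sites in 98 genes (18.1 per Mb), and zinc finger genes 13 in 419 (20.6 per Mb). Olfactory and vomeronasal receptor genes, silent in most tissues, had 1 site in 209 genes, or 2.97 per Mb. That site, in Vmn2r3, also held repeated sequence, with 38.9% of its 31-base words found elsewhere. The part of repeated sequence in this density was not tested.

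Among 20 prostaglandin genes, Ptgdr2, the DP2 receptor for prostaglandin D2, held the sole site, in its last exon (chr19:10940190-10941173), which made 65.0 sites per Mb over the small coding sequence of this list. The scaled pileup was 0.859, 0.772 and 0.500 in the PBRM1 and 1.13, 1.05 and 1.06 in the BRG1 libraries, and the groups did not overlap. The promoter of Ptgdr2 held no shared peak.

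Short motifs were sought on either strand within 201 bp. The AP-1 letters TGANTCA were found at 8.79% of the sites, 11.1% of all shared peaks, 13.5% of shared intron peaks and 4.87% of distal coding midpoints. At CpG-poor sites the AP-1 share was 10.7% and at CpG-rich sites 4.85%. The TEAD letters GGAATG were at 16.7% of CpG-poor and 9.70% of CpG-rich sites, and at 10.6% of coding midpoints. The ETS letters CCGGAA, which hold a CpG, were at 11.5% of CpG-rich and 6.34% of CpG-poor sites. The E-box letters CAGCTG were at 21.9% of the sites, 15.9% of all shared peaks and 14.7% of coding midpoints. The NFI half-site TTGGCA was at 16.0% of the sites and 12.1% of all shared peaks. The RUNX letters TGTGGT were at 16.0% and 15.1%, and the GATA letters AGATAA at 6.25% and 6.96%. The CTCF core was at 1.17% and 0.948%, the CArG box at 0.195% and 1.05%, and the steroid receptor element at 0% and 0.181%. Among the 53 sites in all 6 lists, the E-box letters were at 19 (35.8%, against 20.3% of the other 459), the RUNX letters at 0 (against 17.9%) and the TEAD letters at 3 (5.66%, against 15.5%). AP-1 was at 4 of the 53, NFI at 7, GATA at 3 and ETS at 2, and the CTCF, CArG and steroid receptor motifs at 0. Shared intron peaks in all 6 lists had the E-box letters at 18.4%, against 16.3% of the other intron peaks. By the same split of intron peaks the RUNX letters were at 18.2% against 17.5% and the TEAD letters at 16.2% against 14.7%. A match is a description of the letters and not a bound factor.

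Coding exons took a larger share of the summits in each BRG1 library than in each PBRM1 library. Each library was taken with its own summits on chromosomes 1 to 19, whether or not they lay in a shared pooled peak, and the libraries also entered the pools. Distal coding exons held 0.541%, 0.613% and 0.461% of the summits in PBRM1 replicates 1, 2 and 3, which were 203, 193 and 172 peaks. In BRG1 replicates 1, 2 and 3 they held 0.859%, 0.803% and 0.834%, which were 333, 278 and 307 peaks. The mean was 0.539% ± 0.0760 (SD, n = 3) for PBRM1 and 0.832% ± 0.0280 (SD, n = 3) for BRG1, a ratio of 1.55, and the groups did not overlap. The two-sided exact permutation test gave p = 0.1 (adjusted over 4 comparisons of the antibodies, 0.133), and 0.1 is the smallest p that 3 against 3 allows. No other location had such a ratio of BRG1 to PBRM1 share, which was 0.981 for other exons, 0.978 for introns, 0.947 between genes and 1.05 for promoters.

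The mean BRG1 share was also the higher in sequence of low and of high GC. Among summits under 50% GC the ratio of the coding shares was 1.86, from 50 to 60% it was 1.45 and over 60% it was 1.23, where the groups overlapped (exact permutation p = 0.2). With a CpG ratio over 0.6 it was 1.38 and otherwise 1.61. With -log10 q of at least 5 the ratio was 1.31, at a share of 0.401% for PBRM1 and 0.525% for BRG1. Intron summits had a median GC of 47.3% in each PBRM1 library and of 49.3% to 49.8% in the BRG1 libraries. The PBRM1 libraries were deeper, and the part of depth and of base composition in the difference was not tested further.

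**Figure D5:**
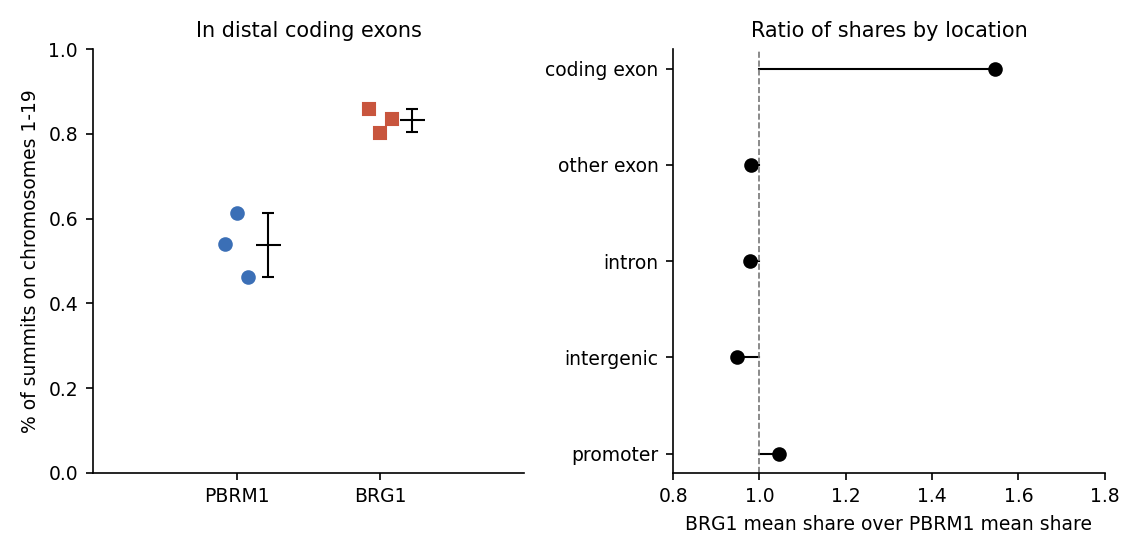
Left, share of each library's summits in distal coding exons, with points for the libraries and bars for mean and SD (n = 3); the PBRM1 points lie between 0.461% and 0.613% and the BRG1 points between 0.803% and 0.859%. Right, ratio of the mean BRG1 share to the mean PBRM1 share by location, which is 1.55 for coding exons and 0.947 to 1.05 elsewhere.

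Where in the gene these summits fell was similar for the antibodies. Last exons held 36.0%, 37.3% and 29.7% of distal coding summits in the PBRM1 libraries and 37.8%, 30.6% and 33.2% in the BRG1 libraries. The means were 34.3% ± 4.09 and 33.9% ± 3.68 (SD, n = 3 each), which differed by less than the spread (exact permutation p = 1). Coding peaks were 292, 307 and 305 bp long at the median in the PBRM1 libraries and 283, 266.5 and 268 bp in the BRG1 libraries, 28.8 bp longer for PBRM1 without overlap of the groups (exact permutation p = 0.1, adjusted 0.133). Relative to all peaks of the library, the median coding pileup differed by a log2 of -0.24 ± 0.064 in PBRM1 and -0.38 ± 0.054 in the BRG1 libraries (mean ± SD of 3 libraries each; by exact permutation p = 0.1, adjusted 0.133).

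Within each library the median coding peak was 1 or 2 fragments lower than the median intron peak. The median pileup in fragments was 14, 14 and 16 in coding exons and 16, 15 and 17 in introns of PBRM1 replicates 1, 2 and 3, and 12 against 13 in each BRG1 library. The log2 difference averaged -0.12 and was negative in 6 of 6 libraries (two-sided exact sign flips, p = 0.031, the smallest p that 6 libraries allow; adjusted over 3 comparisons, 0.09375). It did not pass the threshold of 0.05 after adjustment. With -log10 q of at least 5 the difference was 0.0065 (exact p = 1). Peak length differed by -4.58 bp (exact p = 0.3125), negative in 4 of 6 libraries, and by 27.1 bp with -log10 q of at least 5 (exact p = 0.031). The share of peaks found in both other replicates of the antibody differed by -0.424 percentage points (exact p = 0.781). It was negative in 5 of 6 libraries and 6.05 in PBRM1 replicate 3. With that list left out, each other PBRM1 library was set only against the PBRM1 replicate that remained. The mean by this changed count was -1.91 (exact p = 0.125). With all 6 libraries and -log10 q of at least 5, the difference in the share found in both other replicates was 6.32 (exact p = 0.063). The direction of these differences between coding exons and introns thus depended on the q limit.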

How the data were processed

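ChIC-Seq peak lists of 3 PBRM1 and 3 BRG1 libraries and of each antibody pooled were used. Per the labels, the submitters' notes name cutadapt, Bowtie2, MACS2 and GRCm38.p5. Per the file headers, the authors called peaks with MACS 2.2.7.1 at a q cutoff of 0.05, without a control library, against a local background of 10 kb. The deposited pileup is a signal, the fragment coverage at the summit before any scaling by depth. The authors' fold enrichment is a ratio of pileup to that background, and their q is deposited as −log10 q. Sites called without a control can hold DNA cut regardless of the antibody, and 14284532 to 23992352 fragments per library set how many peaks are called.

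Pileup was scaled to 1000000 header fragments. Genes came from GENCODE M21 and sequence from GRCm38.p6, and no peak ended beyond its chromosome. Python 3.11.15, numpy 2.4.6 and scipy 1.17.1 were used. Libraries were compared by two-sided exact permutation or sign flips with Benjamini-Hochberg adjustment, checked on simulated data. Named genes were the 10 strongest sites in all 6 lists, the top 3 per exon class, the 5 genes with most sites, the 4 highest and lowest ratios and up to 3 per list, and further genes were named after their values were seen. Some genes under this rule are not reported here. Members and lists were chosen with earlier results of these data known. Repeated sequence was scored by 31-base words found elsewhere in the genome, and 437 of 512 sites had none. Same-numbered libraries were tried as a replicate block.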

Additional observations from a re-analysis of the deposited data

How the results depend on the processing

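The cause of each change here was not tested. Of 87 alternatives to 9 results, 10 turned direction, and 5 of the 87, the bins of GC and CpG content, were chosen after seeing the data. The number of sites fell from 512 to 336 with a 5 kb limit, to 298 with -log10 q of at least 5 in both lists and to 298 with the PBRM1 summit also in distal coding sequence, and was 352 to 661 otherwise. Leaving out each library in turn, the coding share difference (PBRM1 minus BRG1, main -0.294 points) ran from -0.331 to -0.255, the last-exon share difference from -1.23 to 2.75 points, the pileup relative to all peaks from 0.10 to 0.17 (log2), the length from 25.8 to 34.1 bp, and the coding minus intron pileup from -0.13 to -0.11 (log2, exact p = 0.063, the smallest 5 libraries allow), length from -5.90 to -2.20 bp and recovery from -1.91 to 0.0740 points. For the antibody that lost a library, recovery was then counted in the replicate that remained. With -log10 q of at least 5, coding minus intron turned to 0.0065 (log2) in pileup, 27.1 bp in length (exact p = 0.031) and 6.32 points in recovery. At 1 kb they were -0.085 in pileup (exact p = 0.063) and 0.326 points in recovery. The last-exon difference turned to -0.0497 points at 5 kb and to -0.0258 with equal numbers of strongest peaks. With same-numbered libraries paired in a replicate block, the coding share difference stayed at -0.294 (exact p = 0.25, the smallest 3 pairs allow). With 3 libraries against 3 no test of the antibodies can pass 0.05, so those p-values say nothing about stability. The differences in coding share, relative pileup and length kept their direction under each alternative run. Same-numbered libraries share only a number. The coding peaks of each PBRM1 library overlapped a peak of any location most often in BRG1 replicate 1, and so did all its peaks. Median pileups of 12 to 17 fragments limit what single libraries resolve.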
